A study of Mus musculus with 5 samples.

Results

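The 10 imprinted growth genes H19, Cdkn1c, Grb10, Meg3, Mest, Peg3, Dlk1, Peg10, Plagl1 and Ndn were followed across 5 RNA-seq libraries of mouse embryonic fibroblasts (MEFs), connective-tissue cells grown out of embryos. The genes were chosen by name, and every row of the expression tables whose gene label is, or contains, a member was taken. All 10 were found, in 11 of 61082 loci, among 21372 gene symbols. Meg3 had 2 rows: a locus joined with Mir770 and Mir1906-2, and a second locus labelled Meg3 alone.

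In imprinted genes, only the copy from the mother or only that from the father is expressed, and a methylation mark laid down in the egg or sperm sets which. Many of them act on fetal and placental growth: maternally expressed members tend to restrain it and paternally expressed ones to promote it. Several are co-expressed in fetal tissues and are turned down after birth.

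Meis1 and Prep1 are DNA-binding partners of Pbx proteins, and Prep1 is encoded by the gene Pknox1. Of the 5 lines, 4 were made from embryos hypomorphic for Prep1, an allele of reduced expression, and were infected. By their labels, M overexpresses Meis1, P overexpresses Prep1, MP carries both factors, and EV received the empty vector. The remaining line was wild type for Prep1 (WT), with no vector named. All were C57BL/6 cells at passage 30, and the growth protocol given for every sample, WT included, names E14.5 hypomorphic embryos. Each group is 1 library from 1 line, so no difference has a replicate check and no p-value was computed. Every comparison is between libraries, and in any comparison with WT the Prep1 genotype, the line of origin and the infection cannot be told apart. In these bulk samples, fewer cells expressing a gene and less RNA per cell cannot be told apart either.

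Levels are FPKM, the read fragments per length of transcript and per amount of mapped fragments that the authors deposited, scaled so that the upper quartile of single-gene loci at 1 FPKM or more in any library is 10. Differences are log2((level + 1)/(level + 1)), which understates changes at low levels. A gene was kept in a comparison at 1 scaled unit or more in either library and was called at 2-fold or more. The scaling was needed because the deposited upper quartile was 429 FPKM in M and 157 in EV, but 9.63 to 12.2 in the other 3 libraries. Meis1 was highest in the libraries whose labels name it, at 16.8 (M) and 15.4 (MP). WT, with no vector named, came next at 12.4, while the library labelled P held 8.86 and EV 8.32. By the difference defined above, neither M nor MP was 2-fold higher than EV, so the added factor itself was not called. Pknox1 did not follow its labels. It stood at 0.554 and 0.569 in the libraries labelled P and MP, below the 2.16 of EV and the 11 of WT. Every direction drawn from those 2 libraries carries that limit. EV and M also carried signal at 99.9% and 70.0% of 1422 olfactory and vomeronasal receptor genes, which fibroblasts are not known to use, against 10.9% to 17.1% in the other libraries. The 95th percentile of these receptor genes was 0.869 scaled units in M, 0.0497 in P, 0.0976 in MP, 0.565 in EV and 0.0693 in WT, and member levels are read beside it. All 9 fibroblast markers with a locus of their own (collagens, Thy1, Vim, Pdgfrb and others) stood at 5 units or more in every library, while none of 5 trophoblast, 6 epithelial, 5 endothelial, 5 muscle or 5 pluripotent and germ cell markers did. Cd14, a blood marker, and Tubb3, Map2 and Nes, neural markers, also stood at 5 or more in every library. The summed fibroblast markers came to 136 in EV and 96.9 in WT, with Postn and Col3a1 at least 2-fold higher in EV, and the part of this in the differences from WT was not tested.

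Sequence shows what the rows stand for, and the members that host a microRNA are given first. H19 is the precursor of miR-675, Mest holds miR-335 in an intron, and the joined Meg3 row names Mir770. The mature sequences from RefSeq (GRCm38.p6) are printed 5′ to 3′, with the seed (bases 2 to 8) in capitals.
mmu-miR-675-5p (H19): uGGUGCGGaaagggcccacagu
mmu-miR-675-3p (H19): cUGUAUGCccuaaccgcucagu
mmu-miR-335-5p (Mest): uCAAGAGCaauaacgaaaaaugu
mmu-miR-335-3p (Mest): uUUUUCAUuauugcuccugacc
mmu-miR-770-5p (Meg3): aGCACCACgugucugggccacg
mmu-miR-770-3p (Meg3): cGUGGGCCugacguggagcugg
The 6 seeds are all different. Mature miRNAs were not measured by these libraries: the Mir335 row was listed at 0 in every library, including WT, where its host Mest was highest. The H19, Mest and Meg3 values below are therefore those of the long host transcripts.

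Promoter windows of 300 bases, from 250 before to 50 after a RefSeq start (GRCm38.p6), were matched by symbol for 7 of the 10 members, with 11 starts in all. Those of Mest, Peg3 and Meg3 are printed because these 3 members differed at least 2-fold between libraries, Meg3 at its second locus. Mest had 3 windows and Meg3 had 2, and 1 of each is printed, chosen by no fixed rule and with the matches known. Motifs were searched on both strands: TGACAG, the core bound by Meis and Prep proteins, the longer Pbx with Meis or Prep decamer, which contains the first, TGANTCA, the AP-1 site, and TGCCGC, the site of ZFP57, a zinc finger protein that protects imprints in early embryos. Capitals mark matches.
Mest, chr6:30737800-30738099, plus strand: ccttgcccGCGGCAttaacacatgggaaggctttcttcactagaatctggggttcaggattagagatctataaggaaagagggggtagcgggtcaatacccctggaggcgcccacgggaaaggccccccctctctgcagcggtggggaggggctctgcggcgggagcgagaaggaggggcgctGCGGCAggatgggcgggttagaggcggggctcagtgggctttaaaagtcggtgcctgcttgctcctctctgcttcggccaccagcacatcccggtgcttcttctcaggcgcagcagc
Peg3, chr7:6730370-6730669, minus strand: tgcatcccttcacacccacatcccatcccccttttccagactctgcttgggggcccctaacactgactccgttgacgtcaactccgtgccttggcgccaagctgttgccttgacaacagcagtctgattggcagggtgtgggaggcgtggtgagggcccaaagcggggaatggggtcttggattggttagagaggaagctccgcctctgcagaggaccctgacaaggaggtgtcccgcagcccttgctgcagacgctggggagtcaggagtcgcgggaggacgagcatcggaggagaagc
Meg3, chr12:109540746-109541045, plus strand: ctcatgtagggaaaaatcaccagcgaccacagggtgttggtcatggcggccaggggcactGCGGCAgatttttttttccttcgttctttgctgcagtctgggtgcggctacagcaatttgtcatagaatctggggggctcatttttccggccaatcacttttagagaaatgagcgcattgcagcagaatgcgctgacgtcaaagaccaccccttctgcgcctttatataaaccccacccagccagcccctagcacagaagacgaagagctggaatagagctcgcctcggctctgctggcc
TGCCGC was found in 5 of the 11 member windows, from Mest (2 overlapping windows), Meg3, Grb10 and Plagl1, and in 11.6% of 32851 windows of all genes. TGACAG, the decamer and TGANTCA were in none of the 11, and in 19.2%, 0.222% and 7.81% of all windows. No match says only that these letters are not in these windows. The printed Mest, Peg3 and Meg3 windows held 17, 13 and 13 CpG dinucleotides, against a median of 7 and a 75th percentile of 20 over all windows. Of the windows not printed, the overlapping Mest window also held 17, the other Mest window 8 and the other Meg3 window 1, and these last 2 had no TGCCGC.

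Wild-type cells were at least 2-fold apart from 1 or more hypomorphic lines at 4 members. H19, Mest and Cdkn1c were lower in the hypomorphic lines than in WT, and Peg3 was higher. With the scaling used, Dlk1 was nearly level across all 5 libraries. WT was also the highest library for Ndn and the lowest for Peg10, Grb10, Plagl1 and, narrowly, Dlk1, none of them called. The share of all genes with WT outside the range of the other lines was not computed. Nor was the share of all genes called against WT in 1 or more of the lines. In EV over WT, 9 of the 10 members were kept, all but Plagl1: 1 of them, Peg3, was at least 2-fold higher, beside 3.2% of 11656 genes kept, and 2, H19 and Mest, were at least 2-fold lower, beside 6.31% (9.51% of genes in either direction). The median log2 ratio of the kept members was -0.19, and that of all kept genes 0.07. With the library labelled P in place of EV, Peg3 was again higher (1.91% of genes), and H19, Mest and Cdkn1c were lower (6.4%, and 8.31% in either direction). In M over WT, Peg3 was higher (2.84%) and H19 and Mest were lower (7.62%), with 10.5% of genes past 2-fold. In MP over WT, Peg3 was higher (1.68%) and no member was lower (8.49%), with 10.2% past 2-fold. These comparisons share the WT library, so their calls are not independent of one another.

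**Figure D1:**
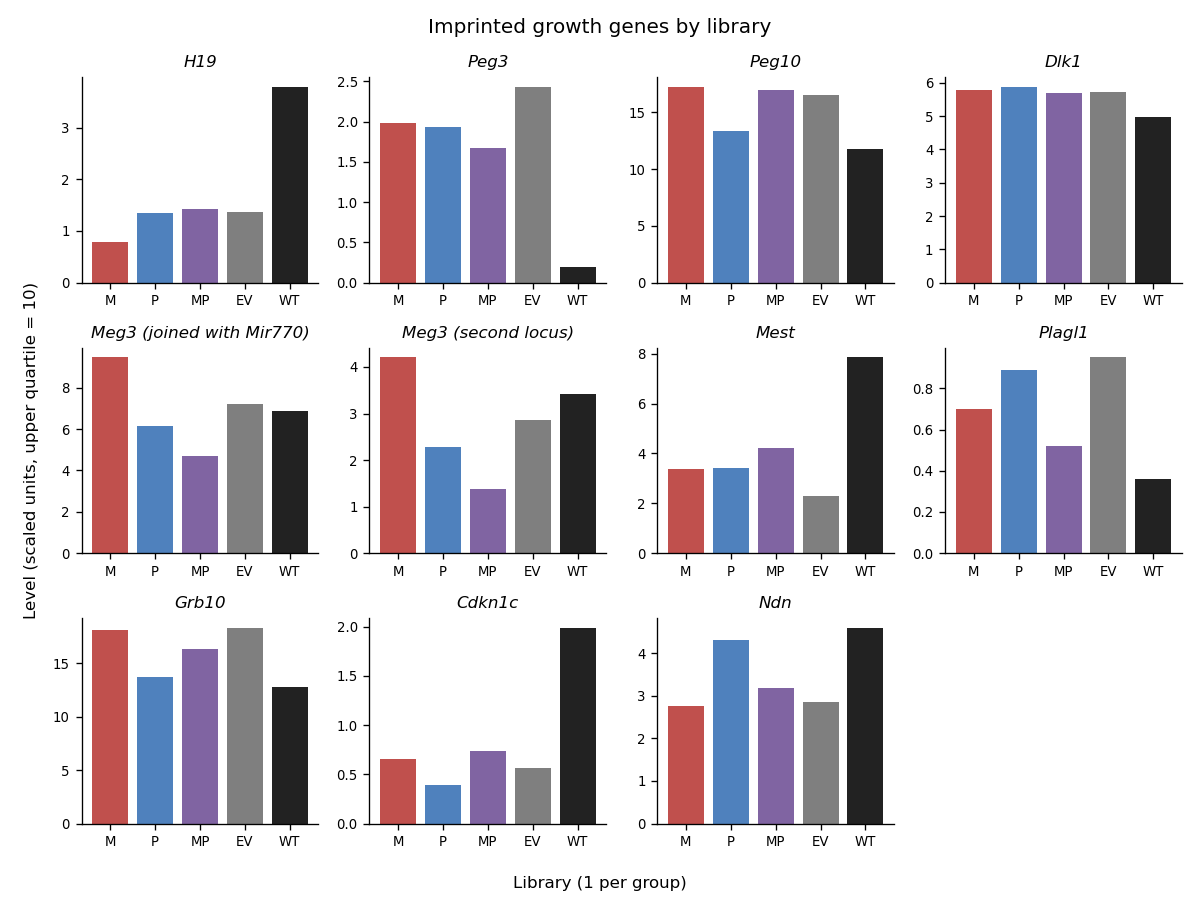
Level of each imprinted growth gene (vertical axes, scaled units, each from 0 on its own range) in the libraries M, P, MP, EV and WT (horizontal axis, 1 library each, so no error bars). H19, Mest and Cdkn1c are highest in WT and Peg3 is lowest there, at 0.201 units.

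Of the maternally expressed members, H19 makes a long non-coding RNA that restrains growth. Its scaled level was 0.778 in M, 1.36 and 1.43 in the libraries labelled P and MP, 1.37 in EV and 3.78 in WT. WT was thus above the 4 hypomorphic lines, which held 20.6% to 37.7% of its level. Against WT the log2 difference was -1.43 in M, -1.02 in the library labelled P, -0.98 in MP and -1.01 in EV, so M, P and EV lay past 2-fold, the last 2 narrowly, and MP just inside it. The M value lay under the 95th percentile of receptor genes in that library.

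The Igf2 gene lies next to H19 in the RefSeq order and shares its imprinting control region, but is expressed from the paternal copy. It encodes the fetal growth factor IGF-II. Igf2 stood at 0.185, 0.118 and 0.108 in M and the libraries labelled P and MP and at 0.825 in EV, against 12.8 in WT (log2 -2.91 for EV over WT). Both genes of the pair were therefore highest in WT, Igf2 by much more.

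Cdkn1c encodes p57Kip2, an inhibitor of cyclin-dependent kinases. Its level was 0.657 in M, 0.393 and 0.740 in the libraries labelled P and MP, 0.561 in EV and 1.99 in WT. Hypomorphic lines thus held 19.8% to 37.2% of WT. The log2 difference was -0.94 for EV over WT, short of 2-fold, and -1.10 for P over WT, past it. A pseudocount of 0.1 gave -1.66 for EV over WT. In EV and M the gene stood under the 95th percentile of receptor genes, so its level there cannot be told from the signal at genes not known to be used. The authors' deposited table called Cdkn1c higher in M than EV (q = 5.59e-12), as it did 4.39% of single-gene loci. That call rested on deposited values that carry the level shift of M, and the scaled difference was 0.09.

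Grb10, an adaptor that binds the insulin and IGF-I receptors and dampens their signalling, was, with Peg10, 1 of the 2 most abundant members. Its level was 18.1 in M, 13.7 and 16.3 in the libraries labelled P and MP, 18.3 in EV and 12.8 in WT. These levels ranked at percentiles 92.23 to 97.9 of all symbols in their library. The largest log2 difference from WT was 0.49, in EV, and no pair of libraries was 2-fold apart. The 99th percentile of all symbols stood at only 1.77 (WT) to 2.11 (EV) times the upper quartile. Little room was therefore left for a 2-fold rise over WT at a member this high, and the lack of a call says little.

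Meg3, a maternally expressed long non-coding RNA, was highest in M. Its joined row stood at 9.47 in M, 6.17 and 4.72 in the libraries labelled P and MP, 7.21 in EV and 6.87 in WT. The second row stood at 4.21 in M, 2.29 and 1.39 in P and MP, 2.87 in EV and 3.41 in WT. Both rows gave M as the highest library and MP as the lowest. No part or strand of the gene is given for the second row. Its locus number falls beside those of Rtl1 and the second Mirg row, described below, while that of the joined row falls beside Dlk1. Whether the second row comes from the Meg3 strand was not tested.

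Among the hypomorphic lines, the second Meg3 row was the one member row called in any comparison. The joined row, at higher levels, fell short of 2-fold. In MP over M the log2 difference was -1.12 at the second row, the row used for calls, and -0.87 at the joined row. In that comparison 1 of the 8 members kept was at least 2-fold lower, beside 1.28% of 10855 genes, and none was higher (0.23%), with 1.51% of genes past 2-fold. When deposited values were centred on the median ratio instead, the second row stood at -0.94, short of 2-fold.

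Among the paternally expressed members, Mest, an enzyme of the alpha/beta hydrolase fold expressed in growing mesoderm, was lower in the hypomorphic lines. It stood at 3.36 in M, 3.41 and 4.21 in the libraries labelled P and MP, 2.28 in EV and 7.86 in WT. WT was above all 4 hypomorphic lines, and EV was below the other 3 of them. The log2 difference from WT was -1.43 for EV, -1.02 for M, -1.0 for P (just past 2-fold) and -0.76 for MP. With median scaling the P value was -0.79, short of 2-fold. Against EV, Mest was higher by 0.41 in M, 0.43 in P and 0.67 in MP, all short of 2-fold. In the authors' tables the locus had the status FAIL for M and MP, which means that their test gave no result, and OK for P and WT.

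The rule for likeness of pattern could be applied to Mest alone, the only member at 5 units or more in a library and spanning at least 1 on the log2 scale at its single-gene row. Of 9038 genes, those with the smallest root-mean-square difference from it in log2(level + 1) over the 5 libraries were St6gal1 (0.12), Tmem53 (0.15) and Egr2 (0.15). St6gal1, a sialyltransferase, stood at 2.75 in M, 3.55 and 3.90 in P and MP, 2.43 in EV and 8.61 in WT.

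Peg3, a zinc finger protein expressed from the paternal copy, went the other way. Its level was 1.98 in M, 1.93 and 1.67 in the libraries labelled P and MP, 2.43 in EV and 0.201 in WT. The hypomorphic lines held 8.34 to 12.1 times the WT level, a ratio that rests on a WT value under 1 unit. Over WT the log2 difference was 1.51 in EV, 1.31 in M and, in the libraries labelled P and MP, 1.29 and 1.15. Peg3 was the only member called against WT in all 4 hypomorphic lines. The share of all genes called in all 4 was not computed. Its WT level was above the 95th percentile of receptor genes in that library. The authors' tables gave the locus the status FAIL in all 4 comparisons, beside 13.9% to 35.3% of single-gene loci. Its nearest neighbours with a row of their own, by RefSeq order, were the imprinted genes Usp29 and Zim1. Usp29 stood at 0.338, 0.115 and 0.159 in M, P and MP and at 0.732 in EV, against 0.00850 in WT. Zim1 was at 0.457 in M and 0.264 in EV and was listed at 0 in P, MP and WT. Both Zim1 values, and those of Usp29 in M and WT, lay under the 95th percentile of receptor genes in their library. Usp29 lay above it in P, MP and EV, but under 1 unit in every library. Neither gene is read as following Peg3.

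**Figure D2:**
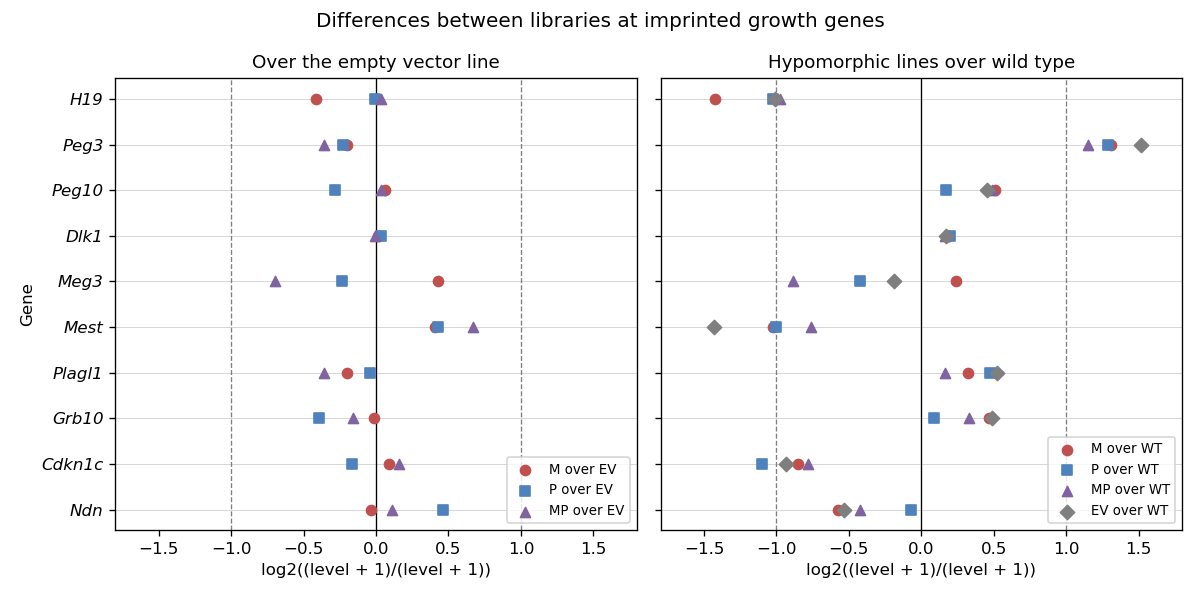
Differences between libraries at the 10 members as log2((level + 1)/(level + 1)) (horizontal axes), with M, P and MP over EV on the left and the 4 hypomorphic lines over WT on the right. Dashed lines mark 2-fold. Against EV no member passes them, and against WT Peg3 lies past the right line in all 4 lines while H19, Mest and Cdkn1c lie between -0.76 and -1.43, on both sides of the left line.

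Dlk1, a membrane protein related to Notch ligands that holds back fat cell differentiation, varied least. The level was 5.78 in M, 5.87 and 5.69 in the libraries labelled P and MP, 5.72 in EV and 4.98 in WT. The highest library was 1.18 times the lowest. This depended on the scaling: with median scaling the log2 difference was 0.53 for EV over WT and 0.61 for P over WT. For MP over EV it was 0.42, and all were short of 2-fold. Its status in the authors' tables was FAIL in all 4 comparisons.

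Dlk1 and Meg3 are neighbours and share an imprinting control region, with Dlk1 and Rtl1 expressed from the paternal copy and Meg3, Rian and Mirg from the maternal one. Rtl1, a retrotransposon-derived gene, stood at 4.26 in M, 1.64 and 1.68 in the libraries labelled P and MP, 2.13 in EV and 2.72 in WT. The Rian row, joined with 2 small RNA genes, stood at 17.9 in M, 11.4 and 14.1 in P and MP, 13.3 in EV and 11 in WT. Mirg, which carries a large group of miRNAs, stood at 12.6 in M, 7.22 and 5.37 in P and MP, 5.24 in EV and 10.4 in WT at its joined row. A second Mirg row stood at 1.8 in M, 0.527 and 0.524 in P and MP, 0.904 in EV and 1.05 in WT. M was the highest library at all of these rows, while Dlk1 did not follow them, and Dio3 was highest in WT (0.877, against 0.163 in M). The share of all genes highest in M was not computed. Of the cluster rows given here, the joined Mirg row alone was at least 2-fold higher in M than EV (log2 1.13). That row was also lower in MP than M (-1.10). Joined rows were not in the counts of genes called.

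**Figure D3:**
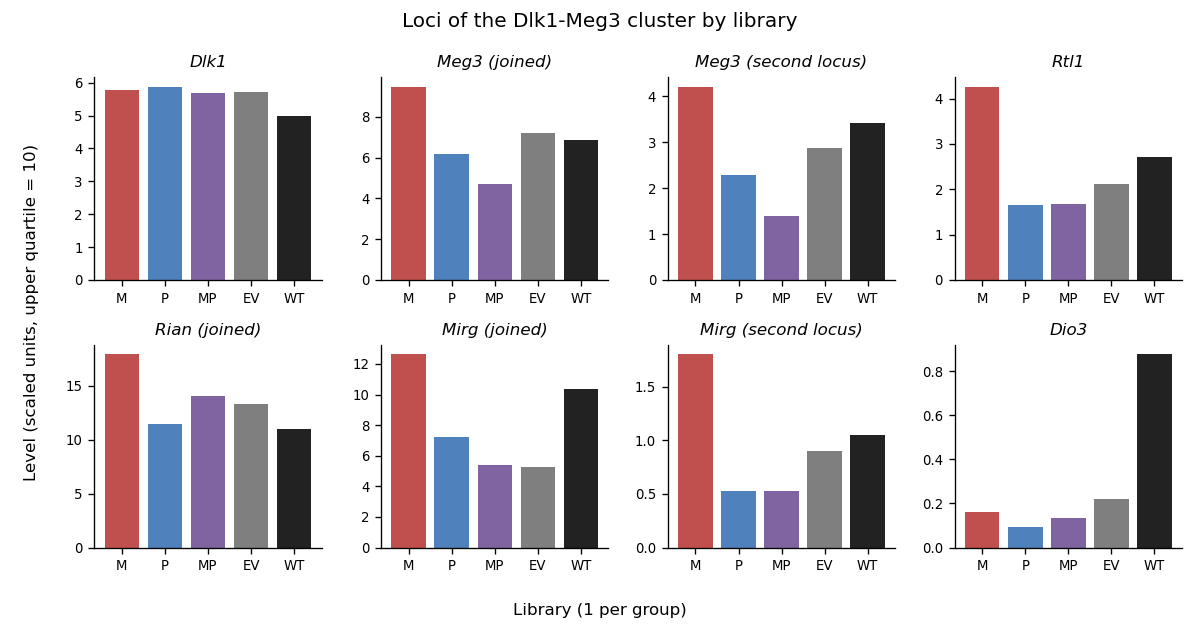
Level of the loci of the Dlk1-Meg3 cluster (vertical axes, scaled units, each from 0 on its own range) in M, P, MP, EV and WT (horizontal axis, 1 library each). The Meg3, Rtl1, Rian and Mirg rows are highest in M, Dlk1 spans only 4.98 to 5.87, and Dio3, at the far end of the cluster, stays under 1 unit.

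Peg10, a retrotransposon-derived gene needed for the placenta, was as abundant as Grb10. Its level was 17.2 in M, 13.4 and 16.9 in the libraries labelled P and MP, 16.5 in EV and 11.8 in WT. P and WT were the lowest libraries for both. The 99th percentile of all symbols stood at 2.07 times the upper quartile in M, 1.84 in P, 1.98 in MP, 2.11 in EV and 1.77 in WT, so P and WT also had the narrowest range at the top. The part of that range in the Peg10 and Grb10 values was not tested. Of the neighbours of Peg10, Sgce, also imprinted, stood between 11.2 in WT and 15.2 in EV. Ppp1r9a, on the other side, stood at 2.86 in M, 2.55 and 2.80 in P and MP and 2.61 in EV, against 0.774 in WT.

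Ndn, a protein of the MAGE family that restrains cell division, was at 2.76 in M, 4.32 and 3.17 in the libraries labelled P and MP, 2.86 in EV and 4.60 in WT. The libraries labelled P and WT were the highest, and no pair of libraries was 2-fold apart. Its imprinted neighbour Magel2 was at 0.151 units or less in every library.

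Plagl1, also called Zac1, a zinc finger transcription factor reported to act on other imprinted genes, stayed under 1 unit and was kept in no comparison. It stood at 0.698 in M, 0.891 and 0.521 in the libraries labelled P and MP, 0.950 in EV and 0.360 in WT. In M it was under the 95th percentile of receptor genes, and in the other 4 libraries above it. Its log2 difference for EV over WT was 0.52, and -0.22 when deposited values were centred, so no direction is given.

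No member was 2-fold apart from EV in the libraries labelled as carrying an added factor. In M over EV, 8 of 10 members were kept and none was 2-fold higher (0.296% of 11144 genes) or lower (0.628%), beside 0.924% in either direction. The same held for P over EV (0.654% and 1.85% of 11163, 2.5% in all), for MP over EV (0.208% and 2.05% of 11034, 2.26% in all) and for MP over P (0.251% and 0.761% of 10771, 1.01% in all). In MP over M, given above, the second Meg3 row was past 2-fold. Cdkn1c and Plagl1 were not kept in any of these. At these shares of all genes, a count of 0 among 8 members is near the background. The median log2 ratio of kept members was -0.00 in M, -0.12 in P and 0.01 in MP over EV, and that of all kept genes -0.01, -0.05 and -0.04.

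In the authors' deposited tables, which compare unscaled values, 1 of the 11 member loci was called in M (Cdkn1c, higher) and none lower, as 0.0131% of single-gene loci were. Their tables called 8 member loci lower in P than EV, beside 43.3% of single-gene loci, and none higher (0.00437%). For MP they called 7 lower than EV, beside 41.2%, and none higher (0.00437%). For WT they called 9 lower than EV, beside 44.6%, and none higher (0.048%). These directions follow the level of the deposited columns, and nothing is read from them about the members.

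Other imprinted genes were taken as a list of 56, of which 46 had a row of their own. In EV over WT 30 of them were kept: 1 was at least 2-fold higher, beside 3.2% of all genes, and 3 were lower, beside 6.31%. These counts are near the shares of all genes, and the list median was -0.17 against 0.07 for all genes. Igf2, Gatm (log2 -2.74), an enzyme of creatine synthesis, and Asb4 (-2.65) were the 3 lower ones, and Ppp1r9a (1.02) the higher one. Gatm stood at 0.223 in M, 0.651 and 0.296 in the libraries labelled P and MP and 0.577 in EV, against 9.52 in WT. Asb4, which lies in the same imprinted region as Peg10, stood at 0.178, 0.0940 and 0.143 in M, P and MP and 0.422 in EV, against 7.90 in WT. None of the list was 2-fold apart in M, P or MP over EV, with 22 or 23 members kept, beside 0.924%, 2.5% and 2.26% of all genes.

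**Figure D4:**
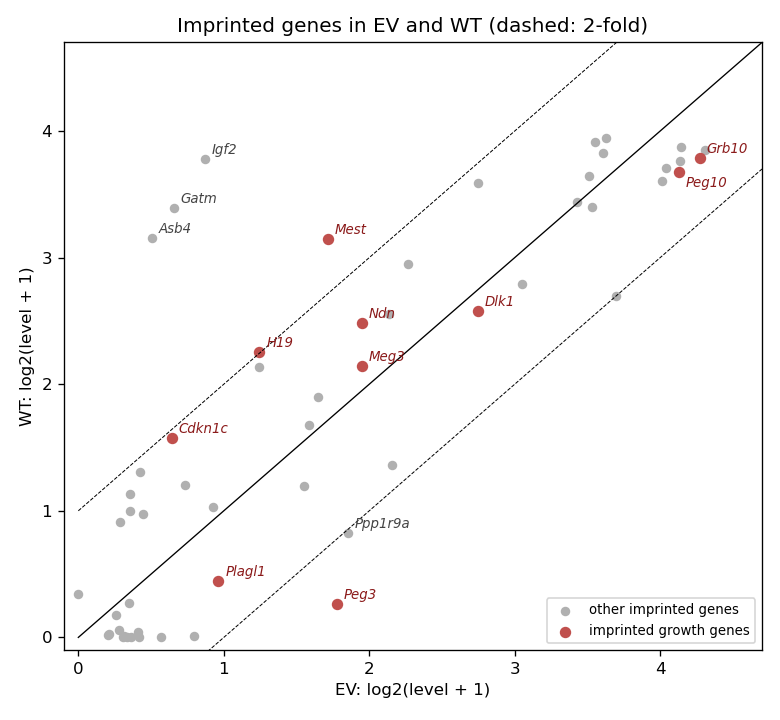
Levels of the 10 imprinted growth genes (red) and of 46 other imprinted genes (grey) in EV (horizontal axis) and WT (vertical axis) as log2(level + 1), with the line of equal level and dashed lines at 2-fold. Igf2, Gatm, Asb4 and Mest lie above the upper dashed line with H19 on its edge, and Peg3 lies below the lower one.

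Genes that lay down, keep or remove imprint marks had a row of their own for 20 of 20 listed. Among them were the DNA methyltransferases, Uhrf1, Zfp57, Trim28, Polycomb subunits and the Tet genes. None of the 15 kept was 2-fold apart in any of these comparisons, beside 0.924% (M over EV) to 10.5% (M over WT) of all genes. At these shares a count of 0 among 15 is near the background. The highest of them, like Grb10, also had little room for a 2-fold rise. In EV over WT the list median was 0.14, led by Uhrf1 (0.74), Dnmt1 (0.58) and Ezh2 (0.56), with Dnmt3b (-0.59), Zfp57 (-0.25) and Dnmt3a (-0.21) lowest. Dnmt1, which copies methylation at cell division, stood at 16.3 in M, 13.9 and 15.6 in the libraries labelled P and MP, 18.6 in EV and 12.1 in WT. The row used for Ctcf, the insulator protein of the H19 and Igf2 region, held under 1 unit, while a row joining it to other genes held 16.2 to 20.6, so Ctcf itself could not be read.

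Signalling partners of the members were measured for 35 of 40 listed. In EV over WT 29 were kept, none was 2-fold higher (3.2% of all genes) and 3 were lower (6.31%), counts near the shares of all genes. Of the insulin and IGF genes, Igf2 and Igf1 (log2 -1.04) were those lower. Igf1, the growth factor of later life, stood at 2.47 in M, 1.20 and 2.02 in the libraries labelled P and MP and 2.16 in EV, against 5.52 in WT. The receptor genes Igf1r and Insr, to which Grb10 binds, stood at 13 and 8.94 in EV, against 11.2 and 8.96 in WT. Of the Notch genes, which Dlk1 is related to, Notch1 was lower in EV than WT (-1.61), at 0.825 in EV and 4.58 in WT, and Notch2 was not (0.14). None of the 10 cell cycle genes beside Cdkn1c was 2-fold apart. Its relatives Cdkn1a and Cdkn1b stood at -0.55 and 0.11 in EV over WT. No partner was 2-fold apart in M, P or MP over EV, with 27 kept, beside the same low shares of all genes.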

How the data were processed

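RNA-seq values of 5 libraries, 1 per group, were taken from 4 deposited tables, each setting EV against another library. The authors deposited FPKM per locus, made with TopHat, Cufflinks and Cuffdiff on mm9 per the submitters' processing notes. The sources used here give no versions, annotation or library normalisation, and depth is unknown. The p-value and q-value columns are the authors' deposited test of 1 library against 1. Loci they called had q under 0.05. Neither was used to call members here.

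Of 61082 loci, 22894 carried 1 symbol. Where a symbol had several, the 1 with the largest mean of log2(FPKM + 1) stood for it, and joined loci were described but not called. Each library was divided by its upper quartile over 22338 single-gene loci and multiplied by 10. EV values came from the table with M, and those of the P, MP and WT tables were 1.10, 0.972 and 1.12 times it, within 1% at 99.4% of loci or more. MP with M or P, and P, M or MP with WT, were set across tables normalised separately. Genes sharing reads with overlapping or antisense genes are uncertain. The method was tested on simulated data (Python 3.11.15, pandas 2.3.3).

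Members and lists were chosen with earlier results of these data known. Named genes were all members, list genes at least 2-fold apart (otherwise the 3 highest and 3 lowest), nearest neighbours, and the 3 genes most like a member. The tables give no coordinates, so neighbours came from RefSeq order (GRCm38.p6). The Dlk1-Meg3 loci, Usp29, Zim1, the receptor genes of Grb10, Notch2, Cdkn1a, Cdkn1b and Ctcf were singled out after their values were seen. Alternatives were other scalings, a pseudocount of 0.1, no filter or a filter of 5 units, and summed loci.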

Additional observations from a re-analysis of the deposited data

Results flagged for a closer look

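Comparisons were paired by label. The Meis1 pair was M over EV and MP over P, and the Prep1 pair was P over EV and MP over M. Within 1 or both pairs, differences were of opposite sign at 5 members, each from 1 library per group. The gap between the Meis1 pair and that between the Prep1 pair are the same arithmetic on the same 4 libraries, so they are not independent. No such difference was tested, and the share of all genes with opposite signs was not computed. Several of these differences were small, and Cdkn1c, under 1 unit in all 4 libraries, was kept in none of these comparisons. Pknox1 stood at 0.554 and 0.569 in the libraries labelled P and MP, below 2.16 in EV and 3.25 in M. The Prep1 pair is therefore named by label only. The widest gap was at the second Meg3 row. It stood at 0.43 in M over EV and -0.46 in MP over P, 0.89 apart on the log2 scale. H19 stood at -0.42 in M over EV and 0.04 in MP over P, and at -0.01 in P over EV and 0.45 in MP over M, a gap of -0.46 that is by construction the same for both pairs. Grb10 stood at -0.02 and 0.24 in the Meis1 pair (-0.26), and Cdkn1c at -0.16 and 0.07 in the Prep1 pair (-0.23). Dlk1 stood at 0.01 and -0.04 in the Meis1 pair and at 0.03 and -0.02 in the Prep1 pair. Its gap of 0.05 is likewise the same by construction.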

How the results depend on the processing

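The counts of members at least 2-fold apart depended most on scaling. On values as deposited the count was 8 in M and 10 each in P and MP against EV. It was 10 in EV against WT and 10 in MP against M. All genes shifted together in these (median log2 1.37, -3.86, -3.89, 3.84 and -5.31). Of all genes, 74.1%, 99.9%, 100% and 98.5% were called in the first 4 of them. Scaled to the median, the count was 1 in MP against EV (Mest) and 5 in EV against WT (Cdkn1c and Plagl1 added). It was 2 in MP against M (H19 added) and 1 in MP against P (Cdkn1c). In P against WT the count stayed at 4, but Mest (-0.79) lost its call and Plagl1 was added. Of all genes, 35.1%, 41% and 19.9% were called in the first 3 of these comparisons, and 13.3% in P against WT. With deposited values centred on the median ratio, added after seeing the data, the count was 2 in MP against EV (Cdkn1c, Mest), beside 37.5% of genes. It was 4 in EV against WT (Cdkn1c added), beside 39.3%, and 2 in MP against M (Cdkn1c, H19). Keeping genes at 5 units or more left 1 in EV against WT (7.11% of genes) and 1 in P against WT (5.56%), Mest in both. It left 0 in MP against M. Taking MP in place of EV against WT, also added after seeing the data as were percentile ranks, left 1, Peg3. The cause was not tested. The main counts were 0 against EV, 3 in EV against WT, 4 in P against WT, 1 in MP against M and 0 in MP against P. Of 70 member ratios, 15 changed sign when centred on deposited values, 13 under median scaling, 14 by percentile rank and none with a pseudocount of 0.1 or summed loci, and no member called at 2-fold was among them. No paired analysis was possible because each group holds 1 library. Depth is unknown, so no interval could be given for low members such as Cdkn1c and Plagl1.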
